A study of Mus musculus with 6 samples.

Results

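The forkhead (Fox) transcription factor family was followed in the RNA sequencing of mouse inguinal adipose tissue (iAT). Members were the genes of the deposited table whose symbol is Fox, a letter from a to s and digits, with nothing after. They numbered 37 of 19831 listed genes, and neighbours such as *Foxd2os* and *Foxred1* were left out. The tissue came from mice at postnatal day 6, with 3 wild-type samples and 3 Npffr1-KO samples, which lack neuropeptide FF receptor 1. No treatment is named for either group. The study's methods name male C57BL/6 mice as its young animals but do not describe the knockout, and the labels give neither sex nor strain. Nor is it stated that each sample came from a separate mouse, so every p-value below measures only the spread between these samples, which may be technical. The comparison addressed which genes differ in young iAT without *Npffr1*.

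Forkhead factors bind DNA through a shared winged helix domain, whose recognition helix lies in the major groove. Members of the O subfamily are held in the cytoplasm when insulin signalling through Akt phosphorylates them, and *Foxo1* restrains the differentiation of fat cells. Members of the C, D and F subfamilies act in embryonic mesenchyme and neural crest, *Foxp3* defines regulatory T cells, and *Foxm1* drives genes of mitosis.

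The most conserved part of the domain shows how close the members are. By translation of the GENCODE M21 coding sequences (build GRCm38), 21 of the 37 members encoded the same stretch of 7 residues, 32 encoded at least 6 of them and 36 at least 5. The 36 bases around this stretch are printed 5′ to 3′ for the 5 members that differed most between the genotypes (*Foxd1*, *Foxd2*, *Foxd3*, *Foxc2* and *Foxo6*) and for *Foxp4* and *Foxs1*, which are among the 3 members with the highest level per length. Capitals mark the bases that differ from *Foxd1*.
Foxd1: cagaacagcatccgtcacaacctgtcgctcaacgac
Foxd2: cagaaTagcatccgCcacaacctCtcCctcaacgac
Foxd3: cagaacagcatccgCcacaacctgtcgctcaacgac
Foxc2: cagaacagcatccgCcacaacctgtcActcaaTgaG
Foxs1: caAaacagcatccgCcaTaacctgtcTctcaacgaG
Foxo6: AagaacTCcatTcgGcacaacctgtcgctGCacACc
Foxp4: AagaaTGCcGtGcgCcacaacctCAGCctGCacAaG
*Foxd3* differed from *Foxd1* at 1 base and *Foxd2* at 4, and in neither did an encoded residue change. *Foxc2* differed at 4 bases and 1 residue, *Foxo6* at 9 bases and 3 residues, and *Foxp4* at 15 bases and 5 residues. The stretch lies in the single exon of *Foxd1* at chr13:98355142-98355177 on the plus strand, of *Foxd2* at chr4:114908267-114908302 on the minus strand, of *Foxd3* at chr4:99657150-99657185 on the plus strand and of *Foxc2* at chr8:121116960-121116995 on the plus strand. In *Foxo6* it is split by an intron and runs from chr4:120269150-120286841 on the minus strand. Some exact stretches are shared with other genes, to which reads could also belong. Of the 31-base sequences of *Foxd1*, 1.23% were also found in other annotated genes, and the share was 1.91% for *Foxd2*, 5.54% for *Foxd3*, 1.37% for *Foxc2* and 0 for *Foxo6*.

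The table lists 1 normalized count per gene and genotype, so these levels carry no error. They add up to 23137343 for wild-type and 23640005 for Npffr1-KO. Because the mean of both values is the mean of the normalized counts of all 6 libraries, the whole reads of each library could be worked out for genes with a mean under 135, which was done for 8098 of 8120 such genes. The size factors of the 6 libraries lay between 0.916 and 1.04. Libraries are named wild-type 1 to 3 and Npffr1-KO 1 to 3 in order of falling size factor, which are not the sample numbers of the labels. Where 2 values of a gene stand together below, the first is wild-type and the second Npffr1-KO. Of the targeted gene, *Npffr1*, the 3 wild-type libraries held 1, 0 and 5 reads and the Npffr1-KO libraries none, where a count of 0 allows up to 3 reads. The tissue markers *Fabp4* (156285 and 173188 normalized counts) and *Adipoq* (37027 and 35360) were among the abundant genes.

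Of the 37 members, 26 had a mean of at least 10 normalized counts. Their median wild-type value was 221 normalized counts, against 573 over the 15309 genes with this minimum, and 10 of the 26 lay above that median. Levels of different members are compared as wild-type normalized counts per kilobase of listed gene length. *Foxo1*, the insulin-sensitive factor, led with 717 per kilobase, and its value of 3983 normalized counts lay above 94.9% of all listed genes. *Foxp4*, a repressor of the P subfamily, followed with 542 and *Foxs1*, a small gene of 1 exon known from pericytes and sensory neurons, with 362. Behind them came *Foxo4* with 349, *Foxp1* with 337, *Foxj2* with 267 and *Foxk2* with 246. The Npffr1-KO values per kilobase placed the same 3 genes first, at 735, 599 and 408. At the other end lay *Foxo6* with 7.52, *Foxh1* with 8.89 and *Foxd1* with 9.25 per kilobase. Without division by length, *Foxp1* (2269 normalized counts) stood among the 3 highest in place of *Foxs1* (474). The listed length of *Foxo1* was 5552 bases, while its GENCODE M21 transcript has 8665. For *Foxp4* these lengths were 4023 and 3999 bases, so the order of *Foxo1* and *Foxp4* depends on the length used.

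**Figure D1:**
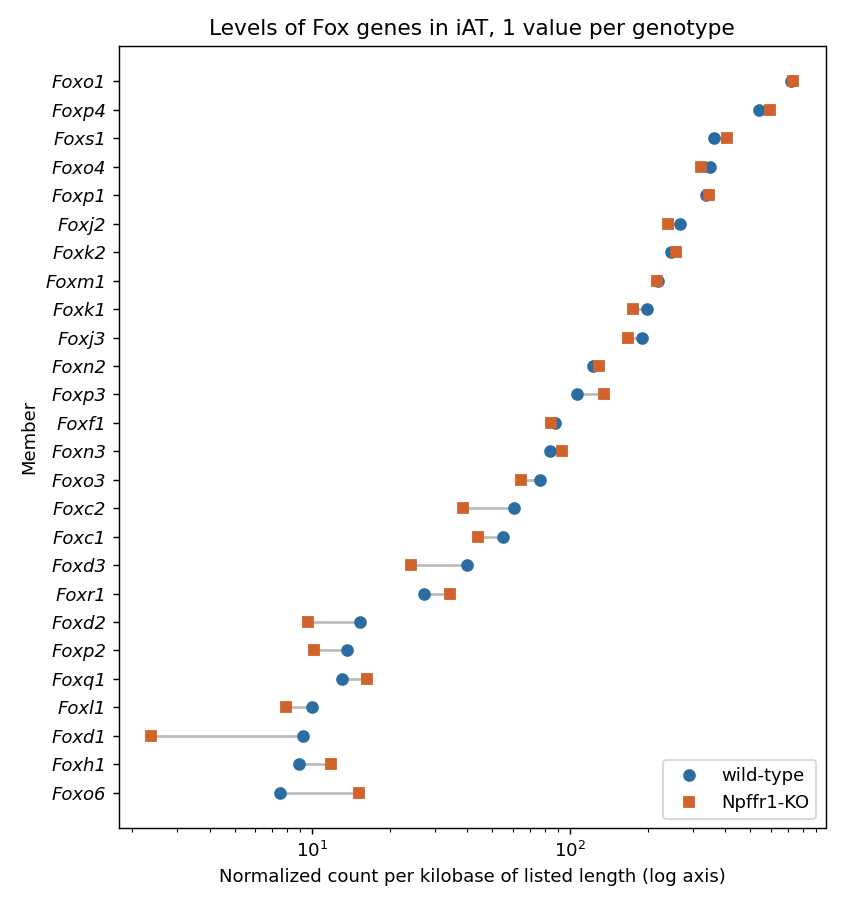
Normalized counts per kilobase of listed length (log axis) for the 26 Fox genes with a mean of at least 10, in wild-type (blue circles) and Npffr1-KO (orange squares), 1 value per genotype joined by a grey line. *Foxo1* is highest at 717 and 735 per kilobase, and *Foxd1* has the longest line, from 9.25 to 2.37.

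Members of 1 exon are described beside those of several, with no test. The 8 single-exon members with the minimum mean had a median of 27.6 wild-type counts per kilobase, with a range from 9.25 to 362, and the 18 members with several exons had a median of 157, with a range from 7.52 to 717. The ranges overlap widely, and *Foxs1* is the single-exon gene at the top of its range. The median log2 ratio of Npffr1-KO to wild-type was -0.50 over the single-exon members, 6 of which were lower in Npffr1-KO, and 0.04 over the others, 8 of which were lower. *Foxd1*, *Foxd2*, *Foxd3* and *Foxc2*, singled out below as lower, are all of 1 exon. The median of -0.50 is therefore not separate from their ratios.

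As a family the members had no common direction between the genotypes. Of the 26, 12 were higher in Npffr1-KO and 14 lower, and their median log2 ratio was -0.03, against 0.01 over all genes with the minimum mean. The ratio was under 0.2 in size for 13 of the 26 members. With a log2 ratio of at least 0.5 in size as the fold, 1 member, *Foxo6*, was higher in Npffr1-KO, and 4 members, *Foxd1*, *Foxd2*, *Foxd3* and *Foxc2*, were lower. Over all 15309 genes 4.37% were higher and 4.78% lower by this fold. *Foxd1* had the farthest ratio, -1.96, and only 4 of the 15309 genes, itself included, lay as low. *Foxd3* had a ratio of -0.72, as low as 253 genes, and *Foxd2* and *Foxc2* had -0.66 each. For *Foxo6* the ratio was 1.01, which 71 genes reached. These ratios are of 1 value per genotype and were not tested.

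**Figure D2:**
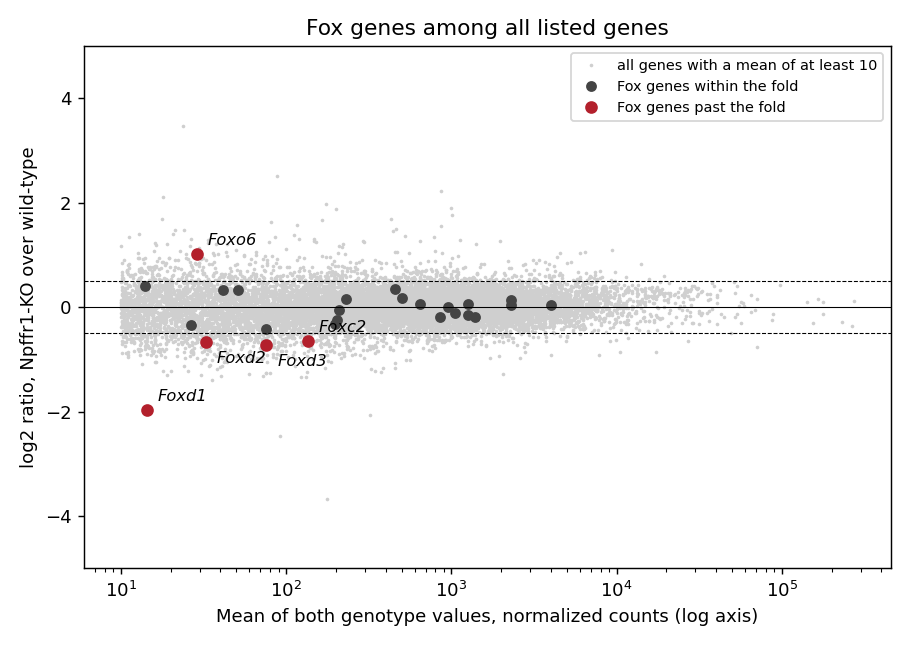
log2 ratio of the Npffr1-KO to the wild-type value against the mean of both values in normalized counts (log axis), for all 15309 genes with a mean of at least 10 (grey) and the Fox genes (black, or red and named where past the dashed lines at 0.5). *Foxd1* lies at -1.96 near the lower edge of the cloud and *Foxo6* at 1.01, while most Fox genes lie close to 0.

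The reads of each library gave the spread that the genotype values lack. They were found for 20 members, of which 11 had at least 10 reads in all. In 2 of these 11, *Foxd1* and *Foxd2*, every Npffr1-KO library lay below every wild-type library, and in 0 every one lay above. Among all 5763 genes with such reads the same held for 9.79% (lower) and 5.99% (higher). The 3 against 3 libraries were compared with a two-sided exact permutation test of the difference of means, whose smallest possible p is 0.10. As an addition made after the data were seen, limma was fitted to log2 of normalized reads over 3576 genes with a mean from 10 to 135, of which 9 were members. At an adjusted p of 0.05 limma called 0 of the 3576 genes (0%), so no member passed, while 466 genes (13%) had an unadjusted p under 0.05. *Foxd1*, *Foxd2* and *Foxo6* were the 3 members among those 466.

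*Foxd1* marks stromal progenitors in the developing kidney and other organs. It is a gene of 1 exon on chromosome 13 (98354242 to 98359305, plus strand). Its wild-type libraries held 18, 32 and 28 reads, and its Npffr1-KO libraries held 2, 3 and 4. The groups were far apart, the nearest libraries having 17.4 and 4.36 normalized reads. In normalized reads the means were 25.5 ± 7.25 (SD, n = 3) and 3.11 ± 1.22 (SD, n = 3), which is 8.21-fold lower in Npffr1-KO (exact permutation p = 0.10, the smallest it can give). By limma the log2 difference was -2.86 with an SE of 0.63, and the adjusted p was 0.108, so the call was not made. Leaving out each library in turn kept the log2 ratio of the reads between -3.36 and -2.79, and the adjusted p of limma between 0.0777 and 0.499. The deposited ratio of -1.96 is smaller than the -3.04 of the reads, as it was for other genes with few reads. *Foxd1* passed the minimum mean of 10 through its wild-type value of 22.8, since its Npffr1-KO value was 5.84. RNA of whole tissue was measured, so fewer cells of a type and less RNA per cell cannot be told apart.

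*Foxd2* shares the printed stretch with *Foxd1* at the level of encoded residues, and is a gene of 1 exon on chromosome 4 (114906282 to 114908873, minus strand). Its reads were 40, 48 and 39 in wild-type and 34, 16 and 21 in Npffr1-KO. Normalized, the nearest libraries of the groups lay at 38.6 and 32.8, so the groups did not overlap but came close. The means were 41.4 ± 4.81 and 23.9 ± 8.36 (SD, n = 3 each; exact permutation p = 0.10). By limma the log2 difference was -0.83 with an SE of 0.33 (adjusted p = 0.318). *Foxd2os*, a non-coding RNA named for its place opposite *Foxd2*, is no member and was chosen after its values were seen. It had 55, 43 and 57 reads in wild-type and 41, 27 and 38 in Npffr1-KO, and its normalized reads did not overlap either, with 42.1 as the lowest wild-type and 41.5 as the highest Npffr1-KO library. No annotated exon of another gene overlaps those of *Foxd2* on either strand.

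*Foxd3* keeps neural crest cells undifferentiated and is found in precursors of Schwann cells. It lies on chromosome 4 (99656299 to 99658622, plus strand), and the annotated *Gm23366* overlaps it on the same strand. The wild-type libraries held 50, 129 and 119 reads and the Npffr1-KO libraries 62, 62 and 38. A pair of wild-type libraries stood high and the third fell among the Npffr1-KO libraries, so the groups overlapped. The means were 97.6 ± 42.9 and 54.6 ± 11.5 normalized reads (SD, n = 3 each; exact permutation p = 0.30), and the adjusted p of limma was 0.387. The Schwann cell markers, all 5 with the minimum mean, had a median log2 ratio of -0.48, and 4 of 5 were lower in Npffr1-KO, 2 of them past the fold, while *S100b*, named after its value was seen, was higher past the fold with 472 and 743 normalized counts. *Sox10*, which defines the lineage, had 719 and 407 normalized counts. The list summed to 35735 and 26035 normalized counts. Its part in the *Foxd3* values was not tested.

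*Foxc2* and *Foxc1* act in mesenchyme and in blood and lymph vessels, and *Foxc2* in adipocytes too. *Foxc2* lies on chromosome 8 between *Foxf1*, 28027 bases away, and *Foxl1*, 9045 bases away. Its mean was just over the limit for reads, and the only combination found is given as a description. That combination was 99, 231 and 187 reads in wild-type and 92, 134 and 73 in Npffr1-KO. Wild-type 1 fell among the Npffr1-KO libraries while the other wild-type libraries lay above all of them. The deposited values were 165 and 105 normalized counts. *Foxc1*, on chromosome 13 beside *Foxf2* and *Foxq1*, had 220 and 175, a log2 ratio of -0.33, and *Foxf1*, a factor of the visceral mesenchyme, had 212 and 204. *Foxl1*, known from stromal cells under gut epithelium, had 32, 45 and 17 reads against 24, 29 and 14, and the groups overlapped almost fully (exact permutation p = 0.40). *Foxq1*, which acts in hair and other epithelia, had 34, 31 and 45 reads against 52, 61 and 26 (exact permutation p = 0.40). On chromosome 8 the log2 ratios of the neighbours *Foxf1*, *Foxc2* and *Foxl1* were -0.05, -0.66 and -0.34, and on chromosome 13 those of *Foxq1* and *Foxc1* were 0.32 and -0.33.

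Of the endothelial, lymphatic and stromal progenitor markers, cells in which these genes are known, none was past the fold in either direction. All 5 endothelial markers had ratios below 0, with a median log2 ratio of -0.37 and sums of 57843 and 45935 normalized counts, and *Cdh5* of the endothelial junction had 23029 and 17863. All 4 lymphatic markers lay at or below 0 (median -0.22), with *Prox1*, the defining gene, at 29, 92 and 53.6 normalized reads in wild-type and 57.8, 70.6 and 17.5 in Npffr1-KO, which overlap. Of the 6 stromal progenitor markers 5 had ratios below 0 (median -0.16), and *Pdgfra* had 1894 and 1467 normalized counts. The part of these cells in the *Foxc2* and *Foxd1* values was not tested.

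*Foxo6* was the member farthest above 0. Unlike its relatives it is known mainly from the brain and stays in the nucleus, and it lies on chromosome 4 (120267079 to 120287349, minus strand, 2 exons). The wild-type libraries held 12, 29 and 9 reads and the Npffr1-KO libraries 41, 28 and 51. Normalized, the highest wild-type library had 28.4 and the lowest Npffr1-KO library 28.3, so the groups touched, while the other 4 libraries were far apart. The means were 16.3 ± 10.6 and 41.1 ± 13.8 (SD, n = 3 each), 2.52-fold higher in Npffr1-KO (exact permutation p = 0.20). By limma the log2 difference was 1.43 with an SE of 0.44 (adjusted p = 0.192). Leaving out each library in turn gave log2 ratios of the reads from 1.04 to 2.0. Its relatives differed less: *Foxo1* had 3983 and 4079 normalized counts and *Foxo4* 1103 and 1017. *Foxo3*, which acts in stress resistance and cell death, was less abundant with 222 and 186, a log2 ratio of -0.25.

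**Figure D3:**
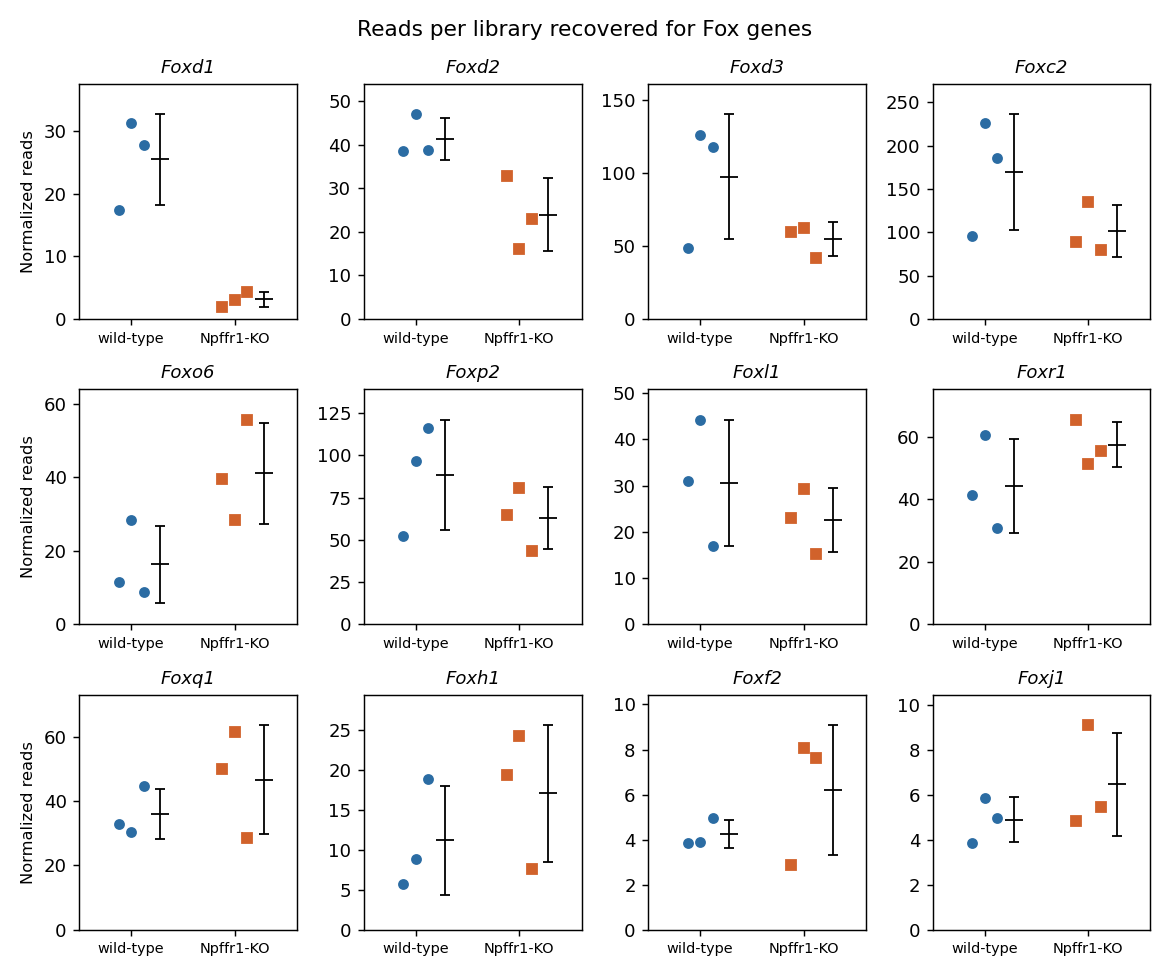
Normalized reads of each library for the 11 Fox genes with recovered reads and at least 10 of them, and for *Foxc2*, just above the limit for recovery; circles are the 3 wild-type and squares the 3 Npffr1-KO libraries, with the mean and SD of each group in black. Only *Foxd1* and *Foxd2* show groups that do not overlap, and in *Foxo6* they touch near 28.

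Genes upstream and downstream of the O subfamily were described from lists. Of 15 genes of the insulin pathway to FoxO, 0 were higher and 1 was lower by the fold, and their median log2 ratio was -0.09. *Insr*, the insulin receptor, had 2287 and 1723 normalized counts, and *Akt1*, the kinase that retains FoxO in the cytoplasm, 7757 and 7484. The gene past the fold was *Irs1*, an adaptor of the receptor, with 2344 and 1640, named after its value was seen. Of 16 FoxO target genes with the minimum mean 3 were higher and 1 was lower by the fold, and the median was -0.06. *Pdk4*, which limits the use of glucose, had 736 and 1458 normalized counts. The others, named after their values were seen, were *Bcl6*, a repressor, with 514 and 1085, and *Sod2*, the mitochondrial superoxide dismutase, with 2326 and 3612, while *Txnip*, an inhibitor of glucose uptake, had 33021 and 21034. Of the 3 most abundant targets *Txnip* was past the fold, and *Pnpla2* of lipolysis (34348 and 31768) and *Pck1* of glycerol synthesis (31686 and 25654) lay within it. The list thus had no common direction.

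Within the P subfamily, *Foxp3* had 400 and 509 normalized counts, a log2 ratio of 0.35, which is within the fold. It was above the limit for reads, and 16.2% of its 31-base sequences are shared with *Flicr*, a transcript that overlaps it. Annotated exons of *Ccdc22*, *Gm36995* and *Ppp1r3f* overlap those of *Foxp3* on the other strand. Whether the reads kept their strand is not given in the sources used here. All 6 T cell markers were higher in Npffr1-KO past the fold, with a median of 0.68 and sums of 6627 and 10478 normalized counts, and *Cd3e* of the T cell receptor complex had 633 and 986. Of the 7 regulatory T cell markers 6 were higher, 2 past the fold (median 0.28), and *Il2ra*, the interleukin 2 receptor chain, had 412 and 488. *Lrrc32*, which holds latent TGF-beta on the surface of regulatory T cells and is also made by endothelium, went the other way with 2447 and 1740. With *Lrrc32* included, the regulatory T cell list summed to 4013 and 3855 normalized counts. The part of these cells in the *Foxp3* values was not tested. *Foxp1*, a factor of lymphocytes and many other cells, had 2269 and 2329, and *Foxp4* had 2180 and 2410. *Foxp2*, known from the brain and lung, had 54, 99 and 117 reads in wild-type and 67, 80 and 40 in Npffr1-KO, which overlap (exact permutation p = 0.30).

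*Foxm1* had 963 and 959 normalized counts, a log2 ratio of -0.01. Of 12 genes of mitosis, 0 passed the fold in either direction, and their median was 0.13 with 10 of 12 above 0. *Ccnb1*, the mitotic cyclin, had 427 and 431, and *Mki67*, the proliferation marker, 3255 and 3529. *Foxk1*, which with *Foxk2* acts on glycolysis and represses autophagy genes, had 1488 and 1303 normalized counts, and *Foxk2* had 1240 and 1297. The broadly expressed *Foxj2* (1337 and 1203), *Foxj3* (908 and 799), *Foxn2* (629 and 656) and *Foxn3* (217 and 243) all lay within 0.2 of 0 on the log2 scale. *Foxs1* had 474 and 535, a ratio of 0.17, which became 0.00 when set against genes of like length. None of the 5 mural cell markers was past the fold. All 5 ratios were below 0 (median -0.19), of which *Cspg4*, named after its value was seen, became 0.13 against genes of like length, with *Pdgfrb*, which defines pericytes, at 5978 and 5164.

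*Foxr1* and *Foxh1* complete the members with the minimum mean. *Foxr1* had 43, 62 and 31 reads in wild-type and 68, 51 and 51 in Npffr1-KO, so the groups overlapped through wild-type 2 (exact permutation p = 0.30). In its translated sequence the best match to the shared stretch held 3 of the 7 residues. The codons around that match began at residue 46 of 223, and whether they lie in the forkhead domain was not examined. *Foxh1*, the nuclear partner of Smad proteins in Nodal signalling, had 6, 9 and 19 reads against 20, 24 and 7 (exact permutation p = 0.40).

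The other 11 members had a mean under 10 normalized counts. *Foxf2*, the relative of *Foxf1*, had 4, 4 and 5 reads in wild-type and 3, 8 and 7 in Npffr1-KO (exact permutation p = 0.40). *Foxj1*, the master regulator of motile cilia, had 4, 6 and 5 against 5, 9 and 5 (exact permutation p = 0.50). Of the ciliated cell markers *Dnah5*, an axonemal dynein, was the lowest with 0.345 and 0.316 normalized counts, while 3 others had the minimum mean. Each of the other members had under 10 reads in all. *Foxa1*, *Foxe3* and *Foxn4* had a single read each, *Foxa2* and *Foxl2* had 3 reads in 1 library each, and *Foxa3*, *Foxd4* and *Foxr2* had 8, 4 and 4 reads. At this depth a difference in these genes was not detectable.

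The other marker lists set the tissue around these genes. Thermogenic markers stood apart with 4 of 5 higher past the fold (median 1.55), and *Ucp1*, the uncoupling protein, had 438 and 1287 normalized counts, while 1 of 6 adipocyte markers was higher past the fold (median 0.15). For skeletal muscle 3 of 3 were higher past the fold (median 0.75), with sums of only 289 and 609, and for erythroid cells 1 of 4 (median 0.19). None of the 4 B cell markers (median 0.26) or 5 macrophage markers (median 0.29) passed it. Shorter genes tended to have higher ratios over the whole table. Set against genes of like length, the median became 0.02 for both adipocyte and erythroid markers. It became 0.13 for B cell, 0.16 for macrophage, 0.64 for skeletal muscle and 1.44 for thermogenic markers. Of the keratinocyte and mammary lists only 2 genes each had the minimum mean, none past the fold, and *Krt14* (2.84 and 3.38) and *Epcam* (28.7 and 36.4) were low. Of 3 ciliated cell markers with the minimum mean 1 was lower past the fold (median -0.13). Of 8 genes of limb and depot identity 1 was higher and 2 were lower past the fold (median -0.28), *Hoxc10* having 683 and 747. In these lists the share past the fold can be read against the 4.37% and 4.78% of all genes. Their part in the values of the Fox genes was not tested.

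**Figure D4:**
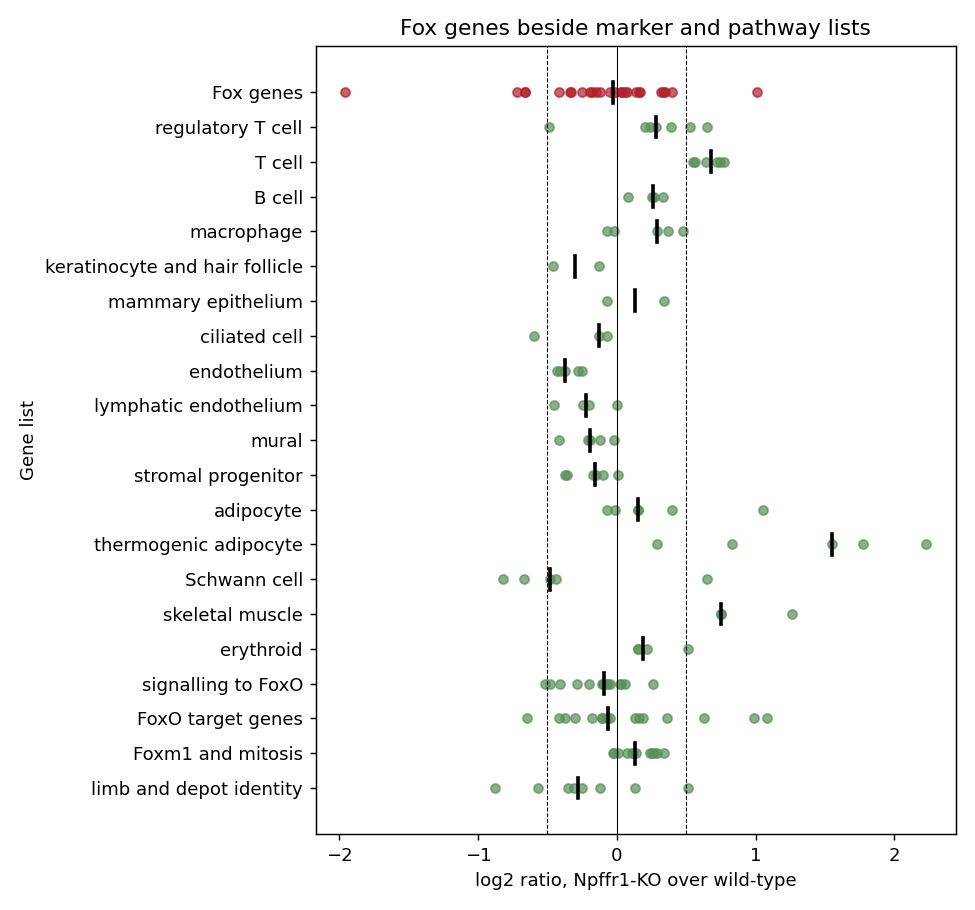
log2 ratio of the Npffr1-KO to the wild-type value for each gene with a mean of at least 10 in the Fox family (red) and in the marker and pathway lists (green), with the median of each list as a black bar and the fold of 0.5 as dashed lines. The Fox genes centre on -0.03 and reach from -1.96 to 1.01, while all 6 T cell markers lie above 0.5 and the endothelial markers lie below 0.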

How the data were processed

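iAT RNA was sequenced from 3 wild-type and 3 Npffr1-KO samples, grouped by GEO's labels. Per the labels the authors used Bowtie2, RSEM and DESeq2, with versions, build and annotation not given in the sources used here. The authors deposited a signal of 1 DESeq2-normalized count per gene and genotype. Its ratio was shrunk for low genes: the median deposited log2 ratio was 0.694 of that of the reads at means of 10 to 25 and 0.911 at 60 to 135. The authors' columns of fold changes, p-values and adjusted p-values, and a second table of selected genes, were not used.

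Single-read genes gave the 6 size factors, and a search (numba 0.67.0) found the reads, RSEM estimates rounded to whole numbers, that match each mean. Above a mean of 60, combinations were weighted by likelihood. The limit of 135 is the highest mean at which at least 95% of made-up genes were read correctly. Reads of 5 genes, none a member, ran against the deposited ratio and were discarded. Weighting, tolerance, this rule and the number of made-up genes were settled after first runs on these data, and a run with fewer made-up genes gave a lower limit, no member lying between the limits. Libraries could not be tied to sample numbers.

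A gene was past the fold at a log2 ratio of at least 0.5 in size and a mean of at least 10. limma 3.58.1 (trend, Benjamini-Hochberg adjustment) was fitted to log2(normalized reads + 0.5), was tested on simulated data and was chosen after the data were seen. Gene places came from GENCODE M21 (GRCm38). Named genes were all members and, per list, the first gene and up to 3 with the highest wild-type value. A member and a marker are not reported here. The members and lists were chosen with earlier results of these data known.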

Additional observations from a re-analysis of the deposited data

How the results depend on the processing

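Counts of members past the fold depended on the threshold. With a log2 ratio of at least 0.3 there were 5 higher and 7 lower members (13.7% and 12.9% of all genes), and with at least 1 there was 1 lower member, *Foxd1*, beside *Foxo6* (0.314% lower and 0.483% higher of all genes). With a minimum mean of 50 there were 0 higher and 2 lower members, *Foxc2* and *Foxd3*, since fewer genes were then counted (3.59% and 3.47% of all genes). Pseudocounts, the other minimum and either centring kept both counts within 1.5 times. The median log2 ratio of the members, which has no replicate spread, then lay between -0.04 and -0.00. None of 25 alternative log2 ratios of the 5 members past the fold reversed, but this was largely fixed beforehand. A pseudocount added to both values cannot change a sign. Either centring moved these ratios far less than the fold by which the members were chosen. Recovered reads that ran against the deposited ratio were discarded, so the ratios of reads were no free check of direction. The log2 ratio of *Foxd1* moved from -1.96 to -1.05 with a pseudocount of 10 and to -3.04 from reads. With no minimum of reads, 1 member lay wholly higher in Npffr1-KO. That member had under 10 reads in all, and the share over all genes was not computed at this setting. None of 66 read ratios without 1 library reversed. Those of *Foxd1* and *Foxd2* could not, because their groups do not overlap. Others came near 0, at 0.07 for *Foxj1* and -0.08 for *Foxl1*. With a prior of 2, limma called 4 genes higher and 0 lower, and without 1 library at most 3 higher and 2 lower, none of them a member; the adjusted p of *Foxd1* with a prior of 2 was 0.0978. No paired analysis was possible because the recovered libraries carry no sample numbers. Few reads limit the low members, and genes above the limit have no spread.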
